A study of Homo sapiens with 6 samples.

Results

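The genes described here are the proteasome genes of CAL-62 cells: the 47 genes whose symbols begin with PSMA, PSMB, PSMC, PSMD, PSME, PSMF or PSMG, out of 11354 genes in the expression table. Transcript values were summed by gene symbol, and the rule for membership reads only the symbol. PSMB8, PSMB9, PSMB10, PSME1 and PSME2 formed the immunoproteasome division of 5 genes, and the other 42 formed the rest. PSMA8 and PSMB11, subunits known from testis and from thymus, were not analysed here. PSMC3IP is among the 42 by its symbol only, since it encodes a cofactor of meiotic recombination and not a proteasome subunit.

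CAL-62 is an established human cell line from an anaplastic thyroid carcinoma. RNA was sequenced from 3 cultures overexpressing FOXK2, a forkhead transcription factor, and from 3 cultures carrying the vector. All 6 were grown in DMEM with fetal bovine serum, and no drug is named in the labels. The promoter of the construct, and whether the cells were a pool or 1 clone, are not stated in the labels. The title of the study concerns activation of VEGFA by FOXK2 and resistance to apatinib, and the comparison of the proteasome genes asks how this machinery differed between the same cultures.

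The proteasome is a barrel of stacked alpha and beta rings that cuts proteins tagged with ubiquitin into peptides, with a 19S regulator on its ends that binds, unfolds and feeds in the substrate. In the constitutive 20S barrel the cutting subunits are PSMB5, PSMB6 and PSMB7. Cells exposed to interferon gamma make PSMB8, PSMB9 and PSMB10, which take the places of PSMB5, PSMB6 and PSMB7 in newly assembled barrels, and PSME1 and PSME2, which form the PA28 cap. The immunoproteasome so formed is best known for making peptides that HLA class I molecules present at the cell surface.

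The values are read as FPKM, a read density scaled to transcript length and library size, and the number of reads behind them is unknown. They summed to 335151 to 363133 FPKM in the FOXK2 libraries and to 370457 to 395782 FPKM in the vector libraries. FOXK2 mRNA was at 30.8, 36.2 and 30.1 FPKM in FOXK2 replicates 1, 2 and 3, against 16.3, 12.5 and 18.8 FPKM in vector replicates 1, 2 and 3. Each FOXK2 library lay above all vector libraries, with a log2 change of 1.00 (SE 0.17) and a limma adjusted p of 0.00525. A log2 change here is the difference of group means of log2(FPKM + 1), FOXK2 minus vector. Among thyroid markers, TG, TSHR, SLC5A5 and NKX2-1 were not among the listed genes, while PAX8 averaged 102 FPKM in FOXK2 cultures and 121 FPKM in vector cultures. Summed levels of 4 listed epithelial markers of 5, without CDH1, were 1502 to 2155 FPKM in FOXK2 libraries and 1949 to 2260 FPKM in vector libraries. Of these markers, KRT19 averaged 251 FPKM in FOXK2 cells and 621 FPKM in vector cells (log2 change -1.31, limma adjusted p = 0.000642). EPCAM, KRT8 and KRT18 were not called (limma adjusted p = 0.436, 0.987 and 0.593). In the fit corrected for GC content and length, described below, KRT8 (0.50, limma adjusted p = 0.00785) and KRT18 (0.66, 0.00236) were called higher. In that fit KRT19 stayed lower (-0.71, limma adjusted p = 0.000811) and EPCAM was not called (-0.22, 0.166). Among leukocyte markers, PTPRC, CD3E and HLA-DRA were not listed, and the 4 that were listed summed to 12.1 to 36.7 FPKM in FOXK2 libraries and 15.7 to 22.7 FPKM in vector libraries. The highest of these sums, in FOXK2 replicate 2, held 21.6 FPKM of LYZ, which was at 0.330 FPKM or below in each other library. CD74 was called lower, at 0.485 FPKM in FOXK2 cells and 1.89 FPKM in vector cells (log2 change -0.93, limma adjusted p = 0.0139). It was not called with the correction for GC content and length (-0.42, limma adjusted p = 0.151). CD68 and LYZ were not called, and CD14 was not tested. Across genes, log2 values of FOXK2 replicate 2 correlated with those of vector libraries at 0.931 to 0.940, above the 0.873 to 0.924 of FOXK2 replicates 1 and 3.

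All 5 immunoproteasome genes were lower in FOXK2-overexpressing cells, PSMB10 and PSMB9 by the widest margin, then PSMB8, then PSME1 and PSME2. The rest of the proteasome genes moved both ways and by less: 5 of 42 were higher, 9 were lower, and 28 did not pass the test. A gene was called where the limma p adjusted over all 10302 tested genes lay under 0.05. All 47 PSM genes passed the filter on low values, which asks for 1 FPKM or more on average. Across all tested genes 36.3% were called, 17.6% as higher and 18.7% as lower in FOXK2 cells. In all 19 of the 47 PSM genes were called, or 40.4%, with 5 higher and 14 lower. Among the 42 genes outside the immunoproteasome 33.3% were called, 11.9% as higher and 21.4% as lower, so their share of calls lay near that of all genes. The median log2 change was -1.68 over the 5 immunoproteasome genes, 0.02 over the other 42 and 0.01 over all tested genes. The count of 19 depended on single libraries. It was 11, 26 and 10 without FOXK2 replicates 1, 2 and 3, and 15, 11 and 9 without vector replicates 1, 2 and 3. The immunoproteasome kept 4 or 5 of its 5 calls in each of these runs.

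**Figure D1:**
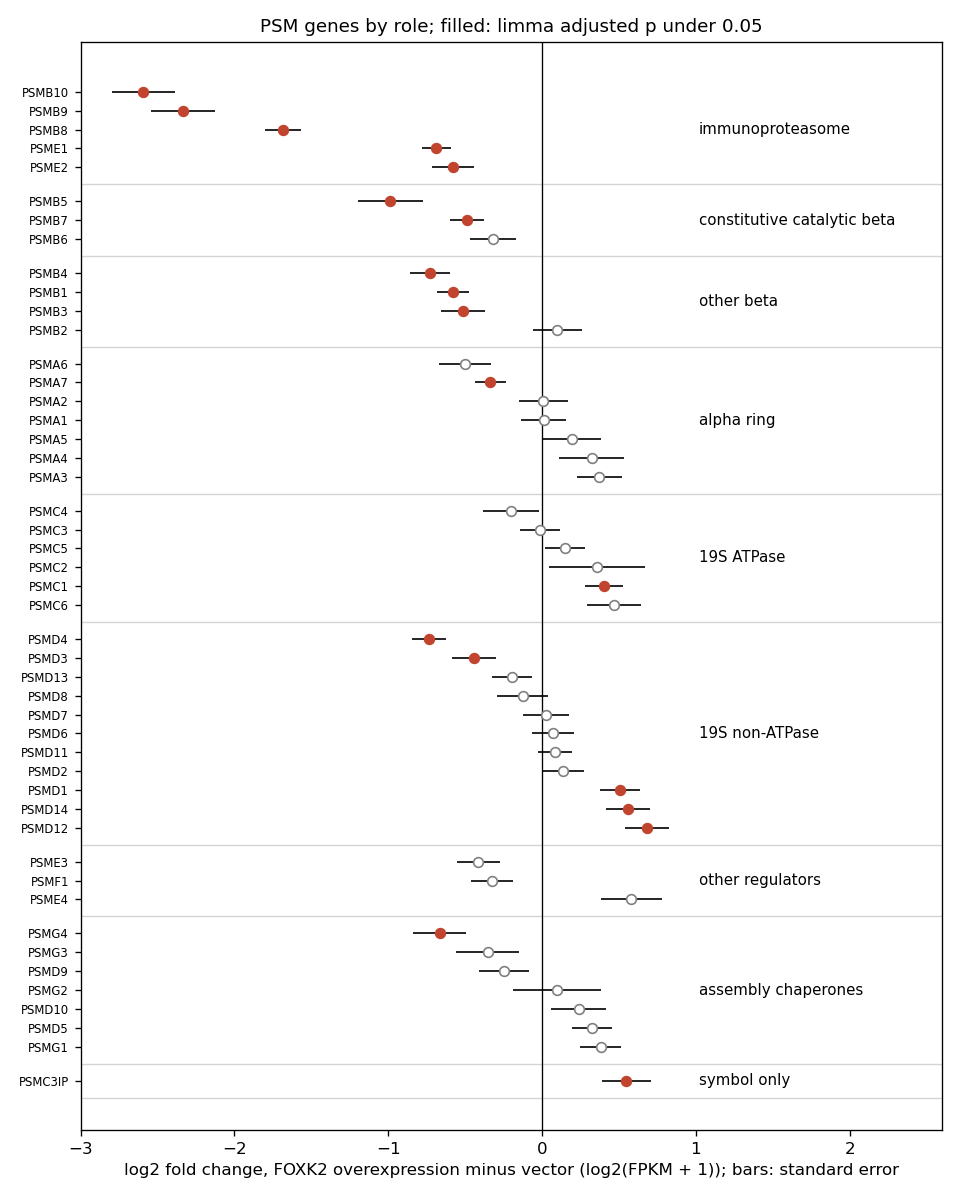
Log2 fold change (FOXK2 overexpression minus vector, on the log2(FPKM + 1) scale, horizontal axis) of each of the 47 PSM genes, grouped by role down the page, with bars for the standard error and filled points for a limma adjusted p under 0.05. The immunoproteasome genes lie between -2.59 and -0.58, while the other genes lie between -0.99 and 0.68 on both sides of 0. PSMA7 and PSMB6 lie below 0 here and above 0 after correction for GC content and length. Other genes outside the immunoproteasome also change sign with that correction, in either direction.

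The catalytic immunoproteasome genes had the largest differences of the 47. PSMB8, which replaces PSMB5, was at 35.9, 40.6 and 43.8 FPKM in FOXK2 replicates 1, 2 and 3, against 136, 127 and 129 FPKM in vector replicates 1, 2 and 3. The means were 40.1 ± 4.00 FPKM in FOXK2 cells and 131 ± 4.62 FPKM in vector cells (SD, n = 3 each), a log2 change of -1.68 (SE 0.12, limma adjusted p = 0.000182). Every FOXK2 library lay far below every vector library, and the vector mean was 3.26 times the FOXK2 mean.

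PSMB9, which replaces PSMB6, was at 3.05, 3.98 and 6.02 FPKM in the FOXK2 replicates, against 25.7, 24.3 and 25.8 FPKM in the vector replicates. The vector libraries lay within a narrow band, and the highest FOXK2 value, in replicate 3, was well under it. The means were 4.35 ± 1.52 FPKM in FOXK2 cells and 25.3 ± 0.859 FPKM in vector cells (SD, n = 3 each), with a log2 change of -2.33 (SE 0.21, limma adjusted p = 0.000527). PSMB10, which replaces PSMB7, was at 1.42, 1.38 and 2.59 FPKM in the FOXK2 replicates, against 17.9, 14.8 and 14.2 FPKM in the vector replicates. FOXK2 replicate 3 was again the highest of the FOXK2 libraries, and the groups did not overlap. PSMB10 averaged 1.80 ± 0.690 FPKM in FOXK2 cells and 15.6 ± 1.97 FPKM in vector cells (SD, n = 3 each), and its log2 change of -2.59 (SE 0.20, limma adjusted p = 0.000302) was the largest of the 47 in size. The ratio of the means, 8.69 times higher in vector cells, exceeds that fold change because 1 FPKM was added to each value before the logarithm was taken.

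The PA28 genes differed by less. PSME1, the alpha subunit of the cap, was at 137, 138 and 145 FPKM in the FOXK2 replicates, against 221, 231 and 226 FPKM in the vector replicates. Its log2 change was -0.69 (SE 0.10, limma adjusted p = 0.00269), and the groups were well apart. PSME2, the beta subunit, was at 38.6, 39.0 and 42.7 FPKM in the FOXK2 replicates, against 51.3, 65.7 and 64.9 FPKM in the vector replicates. Vector replicate 1 lay nearest to the FOXK2 libraries, although the groups did not overlap. The log2 change of PSME2 was -0.58 (SE 0.14, limma adjusted p = 0.0160), and it missed the threshold without vector replicate 2 (-0.52, adjusted p = 0.0629) or without vector replicate 3 (-0.52, adjusted p = 0.0611). In RNA from whole cultures, fewer cells with a transcript and less of it per cell cannot be told apart.

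**Figure D2:**
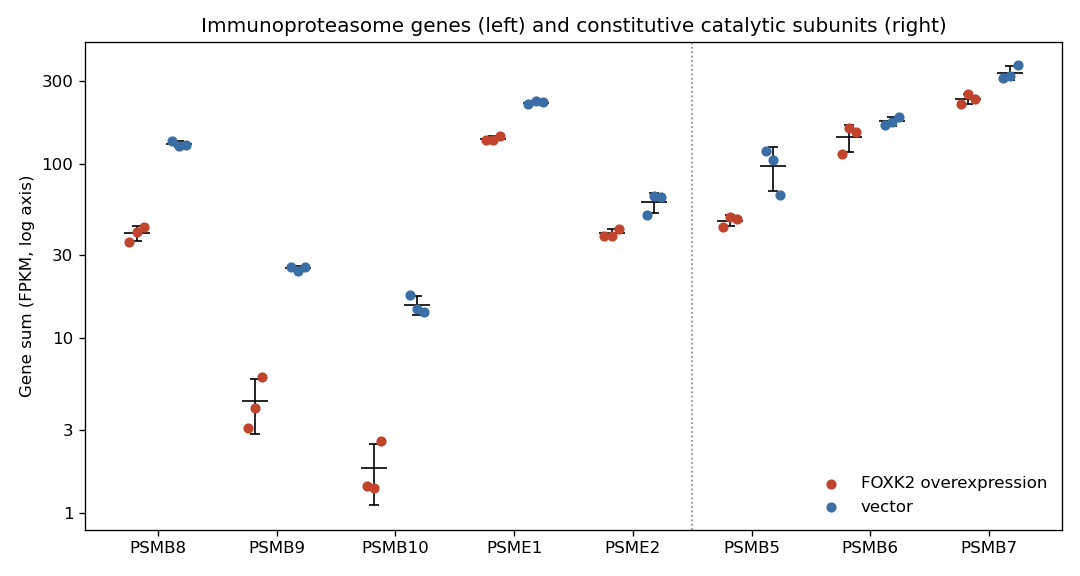
Gene level (FPKM, log axis) of the 5 immunoproteasome genes, left of the dotted line, and of PSMB5, PSMB6 and PSMB7, right of it; points are libraries, lines the mean and SD of 3. The FOXK2 points of PSMB9 and PSMB10 lie between 1.38 and 6.02 FPKM, against 14.2 to 25.8 FPKM in vector libraries, and PSMB5 in vector libraries spreads over 66.9 to 119 FPKM.

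The differences change in size, and for PSME2 in call, when base composition is taken into account. Over the 47 genes, log2 change and GC content had a Spearman correlation of -0.667, over the 42 genes outside the immunoproteasome -0.607, and over all tested genes -0.587, given across genes, which are not independent replicates. Transcript length went with the fold change in the opposite sense, with correlations of 0.680, 0.649 and 0.341 in the same sets. The median GC content was 56.0% for the immunoproteasome genes, 48.9% for the other 42 and 49.4% for all tested genes. In a fit to values from which smooth trends with GC content and length had been taken out library by library, the log2 change was -1.26 for PSMB8 (limma adjusted p = 0.000478), -1.78 for PSMB9 (0.00127), -2.0 for PSMB10 (0.00158) and -0.37 for PSME1 (0.0225). PSME2, at -0.11 (adjusted p = 0.560), was not called in it. That fit called 12 of the 47, 4 as higher and 8 as lower, against 15.9% of all tested genes called as higher and 14.3% as lower. Of the 19 genes called without the correction 10 were also called with it, 4 of them in the immunoproteasome.

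**Figure D3:**
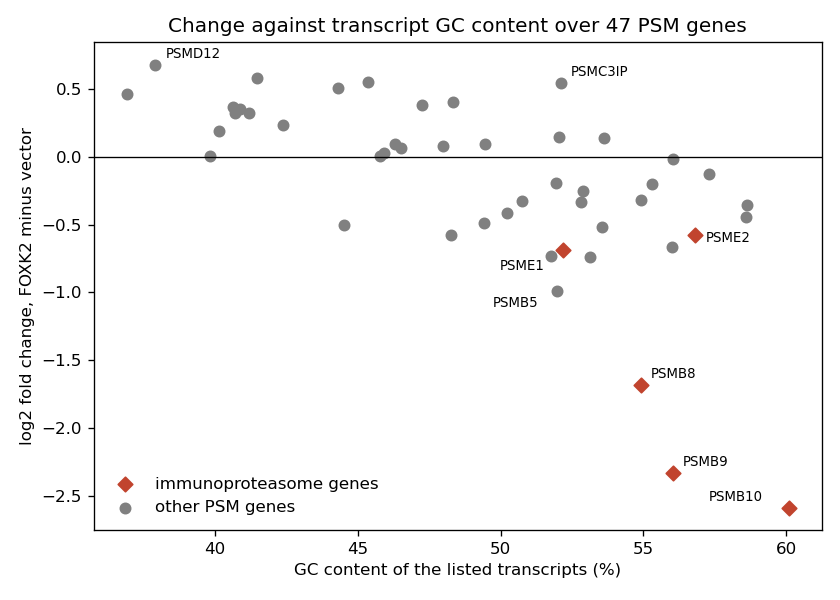
Log2 fold change (FOXK2 overexpression minus vector, vertical axis) against the GC content of the listed transcripts (percent, horizontal axis) for the 47 PSM genes, with immunoproteasome genes as diamonds. The fold change declines with GC content over all 47 genes (Spearman -0.667), and PSMB8, PSMB9 and PSMB10 lie below genes of similar GC content.

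The catalytic genes of the constitutive barrel were also lower, in part. PSMB5, which carries the chymotrypsin-like activity, was at 43.4, 50.1 and 48.7 FPKM in the FOXK2 replicates, against 119, 106 and 66.9 FPKM in the vector replicates. Vector replicate 3 stood much nearer to the FOXK2 libraries than the other vector libraries did. The log2 change of PSMB5 was -0.99 (SE 0.21, limma adjusted p = 0.0117), and with the correction for GC content and length it was -0.72 and missed the threshold (adjusted p = 0.0569). PSMB7, with trypsin-like activity, was at 222, 254 and 237 FPKM in the FOXK2 replicates, against 313, 321 and 369 FPKM in the vector replicates, with no overlap. Its log2 change was -0.49 (SE 0.11, limma adjusted p = 0.0151), and the call was lost without FOXK2 replicate 3 (-0.49, adjusted p = 0.0605) or vector replicate 3 (-0.42, adjusted p = 0.0553). With the correction PSMB7 stood at -0.29 (adjusted p = 0.0190). PSMB6, with caspase-like activity, was at 114, 162 and 153 FPKM in the FOXK2 replicates, against 167, 176 and 187 FPKM in the vector replicates. It did not pass the test (log2 change -0.32, SE 0.15, limma adjusted p = 0.133), and its sign turned to 0.17 under the correction for GC content and length (adjusted p = 0.175).

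Set against its constitutive counterpart within each library, each of the 3 catalytic immunoproteasome genes took a smaller share of its pair in FOXK2 cells. PSMB8 made up 45.2%, 44.8% and 47.4% of the summed FPKM of PSMB8 and PSMB5 in FOXK2 replicates 1, 2 and 3, against 53.2%, 54.4% and 65.9% in vector replicates 1, 2 and 3. PSMB9 made up 2.61%, 2.39% and 3.79% of its pair with PSMB6 in the FOXK2 replicates, against 13.4%, 12.1% and 12.1% in the vector replicates. PSMB10 made up 0.633%, 0.541% and 1.08% of its pair with PSMB7 in the FOXK2 replicates, against 5.40%, 4.40% and 3.70% in the vector replicates. In none of the 3 pairs did the groups overlap. The log2 ratio of the pair was lower in FOXK2 cells by a difference of -0.70 for PSMB8 to PSMB5, -2.02 for PSMB9 to PSMB6 and -2.10 for PSMB10 to PSMB7. Each gave p = 0.1 in a two-sided exact permutation test, which is the smallest p that 3 libraries against 3 allow, and 0.1 after adjustment over the 3 pairs. The difference for PSMB8 to PSMB5 was -0.46 without vector replicate 3, the library in which PSMB5 was lowest among vector cultures.

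Over the 6 catalytic beta genes together, PSMB8, PSMB9 and PSMB10 took 9.60%, 8.97% and 10.7% of the summed FPKM in the FOXK2 replicates, against 23.0%, 21.6% and 21.3% in the vector replicates. The sum itself was 420, 512 and 491 FPKM in the FOXK2 replicates and 778, 769 and 792 FPKM in the vector replicates. Both the share and the sum were thus lower in each FOXK2 library than in any vector library, and PSMB8 held most of the immunoproteasome part in both groups.

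**Figure D4:**
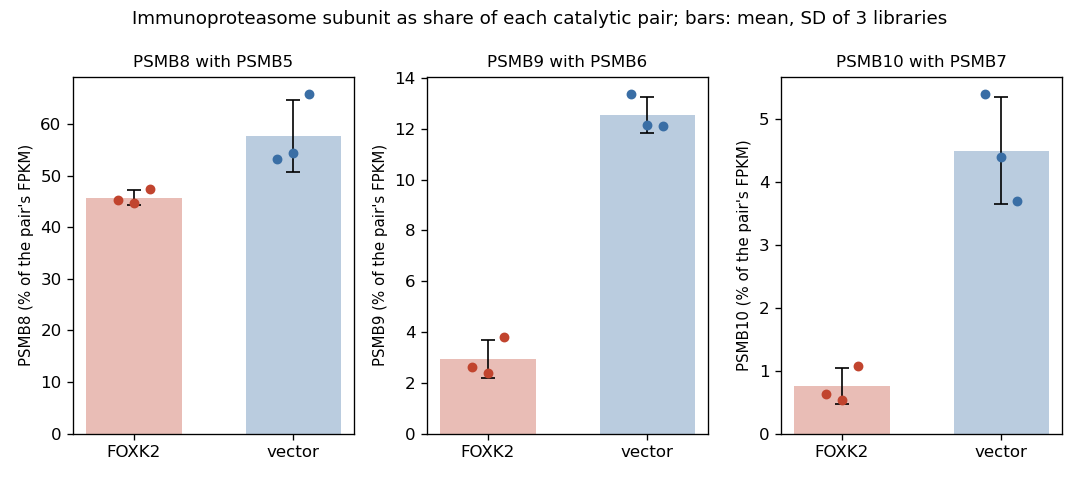
Share of PSMB8, PSMB9 and PSMB10 in the summed FPKM of each gene and its constitutive counterpart (percent, vertical axes from 0, on different scales), FOXK2 cultures left and vector cultures right, with bars for the mean and SD of 3 libraries and points for libraries. PSMB8 averages 45.8% and 57.8%, PSMB9 2.93% and 12.5%, and PSMB10 0.752% and 4.501%, in FOXK2 and vector cultures in that order.

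The promoters of the immunoproteasome genes are shown because these genes are textbook targets of interferon, whose factors bind the interferon-stimulated response element (ISRE). Each line gives 100 bases before and 20 bases after the start site in the RefSeq promoter table (GRCh38.p14), 5′ to 3′ on the gene's strand, with letters that match the ISRE pattern GAAANNGAAA on either strand in capitals.

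PSMB8 (GRCh38.p14, chr6:32844028-32844147, minus strand): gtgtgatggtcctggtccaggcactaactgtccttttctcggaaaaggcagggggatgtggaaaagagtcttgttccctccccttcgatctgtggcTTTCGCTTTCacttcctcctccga
PSMB9 (GRCh38.p14, chr6:32854092-32854211, plus strand): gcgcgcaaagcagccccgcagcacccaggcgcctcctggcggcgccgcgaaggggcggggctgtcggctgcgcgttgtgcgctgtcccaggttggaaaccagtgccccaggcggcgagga
PSMB10 (GRCh38.p14, chr16:67936831-67936950, minus strand): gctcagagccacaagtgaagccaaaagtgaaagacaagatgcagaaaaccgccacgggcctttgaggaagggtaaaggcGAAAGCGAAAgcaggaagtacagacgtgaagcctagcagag
PSME1 (GRCh38.p14, chr14:24136094-24136213, plus strand): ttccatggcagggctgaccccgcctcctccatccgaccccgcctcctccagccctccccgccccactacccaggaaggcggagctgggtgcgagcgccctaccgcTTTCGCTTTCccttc
PSME2 (GRCh38.p14, chr14:24146591-24146710, minus strand): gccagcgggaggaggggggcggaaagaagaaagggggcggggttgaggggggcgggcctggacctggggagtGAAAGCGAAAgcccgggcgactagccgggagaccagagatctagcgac

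In these windows the letters GAAAGCGAAA, read as TTTCGCTTTC from the opposite strand, stood across the start site of PSMB8 at bases -4 to 6, at -21 to -12 of PSMB10, at 6 to 15 of PSME1 and at -28 to -19 of PSME2. PSMB9 had no match to the pattern in its window, which says only that these letters are not in it. The table has 2 windows for PSMB8, of which the one not shown has no match to the pattern. The start of the one shown coincides with that of the transcript holding 95.3% of the gene's FPKM in FOXK2 cells and 96.1% in vector cells. The listed main transcripts of the other genes start elsewhere in GENCODE 29, from 31 bases before the window's start site for PSMB9 to 611 bases before it for PSME2.

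Windows of 300 bases, 250 before and 50 after the start, were in the table for 41 of the 47 PSM genes. The pattern GAAANNGAAA was in 4 of the 6 immunoproteasome windows and in 3 of 45 other PSM windows, those of PSMA4, PSMB4 and PSMG4, against 3.57% of all 35116 windows. The exact letters GAAAGCGAAA, singled out after they had been seen, were in 4 of the 6, in 1 of the 45 (PSMG4, a chaperone gene) and in 35 of all windows, or 0.0997%. The GAS pattern TTCNNNGAA was in 1 of the 6 immunoproteasome windows, that of PSMB8, in 6 of the 45 and in 7.66% of all. The kappaB pattern GGGNNNTTCC was in 0 of the 6, in 3 of the 45 and in 6.52% of all. The antioxidant response pattern TGACNNNGC was in 3 of the 6, in 12 of the 45 and in 13.35% of all. GTAAACA, the core bound by forkhead factors, was in 0 of the 6, in 2 of the 45 (PSMB2 and PSMD5) and in 3.42% of all windows. All patterns were searched on both strands, and a match is a run of letters, not a measured site.

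On the RefSeq assembly, PSMB8 and PSMB9 lie on chromosome 6 beside the peptide transporter genes, in the order TAP2, PSMB8, TAP1, PSMB9. TAP1, which carries peptides into the endoplasmic reticulum, was at 4.53, 7.10 and 6.20 FPKM in the FOXK2 replicates, against 20.9, 18.6 and 18.8 FPKM in the vector replicates, with a log2 change of -1.58 (limma adjusted p = 0.00110). TAP2 averaged 12.9 FPKM in FOXK2 cells and 19.99 FPKM in vector cells and did not pass the test (-0.57, adjusted p = 0.0597). PSME1 and PSME2 lie on chromosome 14 with EMC9 between them, and PSMB10 lies on chromosome 16 between CTRL and LCAT.

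In the list of class I antigen processing genes and their regulators, 17 of 18 genes were tested, of which 8 were lower and 1 higher in FOXK2 cells, against 18.7% of all tested genes called lower and 17.6% called higher. The median log2 change of the list was -0.70, beside 0.01 for all tested genes. IRF1, a transcription factor of the interferon response, averaged 7.81 ± 1.36 FPKM in FOXK2 cells and 22.3 ± 2.58 FPKM in vector cells (SD, n = 3 each), a log2 change of -1.41 (limma adjusted p = 0.00135). STAT2, which acts below the type I interferon receptor, was lower as well (-1.15, adjusted p = 0.00361). HLA-B, a class I heavy chain, stood at -1.57 (limma adjusted p = 0.00103) and at -1.02 with the correction for GC content and length, while HLA genes share near-identical sequence and the division of their reads is uncertain. TAPBP, IRF9 and IFNGR2 were also called lower. With the correction 10 genes of the list were called lower and 0 higher, against 14.3% of all tested genes called lower and 15.9% called higher, with IFNGR2 (-0.46, adjusted p = 0.0861) and JAK2 (0.45, adjusted p = 0.102) no longer among those called. JAK2, a kinase of the interferon gamma receptor, was the gene called higher (0.85, adjusted p = 0.0399), and that call was lost without FOXK2 replicate 1 or 3 or any 1 vector replicate (adjusted p = 0.0514 to 0.120). B2M (-0.49, adjusted p = 0.237) and NLRC5 (-0.46, adjusted p = 0.0846) did not pass the test.

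The non-catalytic beta subunits, which hold the ring together, were lower in 3 of 4 cases, against 18.7% of all tested genes called lower. PSMB1 was at 131, 138 and 141 FPKM in the FOXK2 replicates, against 191, 205 and 217 FPKM in the vector replicates (log2 change -0.58, SE 0.10, limma adjusted p = 0.00641). PSMB4 was at 68.9, 90.4 and 81.7 FPKM in the FOXK2 replicates, against 136, 124 and 139 FPKM in the vector replicates (-0.73, SE 0.13, limma adjusted p = 0.00644). Both genes had no overlap between the groups and were also called with the correction for GC content and length, at -0.44 and -0.42. PSMB3 was at 82.0, 112 and 85.7 FPKM in the FOXK2 replicates, against 127, 127 and 143 FPKM in the vector replicates (-0.52, SE 0.14, limma adjusted p = 0.0280). Its FOXK2 replicate 2 came close to the vector libraries, the correction brought it to -0.07 (adjusted p = 0.520), and the call was lost without FOXK2 replicate 1 or 3 or any 1 vector replicate (adjusted p = 0.0596 to 0.101). PSMB2 did not pass the test (0.10, adjusted p = 0.639).

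In the alpha ring, whose subunits gate the entry to the barrel, 1 of 7 genes was called, against 36.3% of all tested genes. That gene, PSMA7, had the highest level of the 47, at 569, 624 and 588 FPKM in the FOXK2 replicates, against 708, 731 and 810 FPKM in the vector replicates. The log2 change of PSMA7 was -0.34 (SE 0.10, limma adjusted p = 0.0370), turned to 0.02 with the correction for GC content and length (adjusted p = 0.815), and was -0.10 with quantile normalization (adjusted p = 0.316). The PSMA7 call was also lost without FOXK2 replicate 1 or 3 or vector replicate 2 or 3 (adjusted p = 0.0884 to 0.130). The other 6 alpha genes had log2 changes from -0.50 for PSMA6 (adjusted p = 0.0516) to 0.37 for PSMA3 (adjusted p = 0.0813). Levels within the ring ran from 19.8 FPKM for PSMA5 to 594 FPKM for PSMA7 in FOXK2 cells, and from 17.1 to 750 FPKM in vector cells for the same genes.

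The ATPase ring of the 19S regulator, which unfolds substrates, had 1 call among 6 genes, against 36.3% of all tested genes called. PSMC1 was at 18.4, 17.0 and 16.7 FPKM in the FOXK2 replicates, against 12.7, 12.9 and 13.0 FPKM in the vector replicates (log2 change 0.40, SE 0.12, limma adjusted p = 0.0356). The groups did not overlap, but with the correction for GC content and length PSMC1 stood at 0.21 (adjusted p = 0.120), and its call was lost without FOXK2 replicate 1 or 3 or any 1 vector replicate (adjusted p = 0.0840 to 0.107). PSMC6 (0.47, adjusted p = 0.0731) and PSMC2 (0.36, adjusted p = 0.391) did not pass the test. PSMC3 had near-equal levels, 206 ± 23.2 FPKM in FOXK2 cells and 208 ± 22.3 FPKM in vector cells (SD, n = 3 each), and a log2 change of -0.01, but was among the genes called higher with the correction (0.39, adjusted p = 0.0124).

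Among 11 non-ATPase subunits of the 19S regulator, 3 were higher, 2 were lower and 6 did not pass the test. The share called was 45.5%, against 36.3% of all tested genes, 17.6% as higher and 18.7% as lower. PSMD12, a lid subunit, was at 30.6, 23.8 and 28.8 FPKM in the FOXK2 replicates, against 17.3, 17.7 and 15.5 FPKM in the vector replicates, without overlap. Its log2 change of 0.68 (SE 0.14, limma adjusted p = 0.0102) was the highest of the 47, and with the correction for GC content and length it was 0.18 (adjusted p = 0.193). PSMD12 also had one of the lowest GC contents of the 47, as the plot of fold change against GC content shows. PSMD14, the enzyme of the lid that removes ubiquitin chains, was at 98.0, 72.7 and 96.1 FPKM in the FOXK2 replicates, against 61.9, 60.7 and 56.4 FPKM in the vector replicates (0.56, SE 0.14, limma adjusted p = 0.0218). PSMD1, a scaffold of the base, was at 64.1, 49.1 and 58.3 FPKM in the FOXK2 replicates, against 40.8, 38.6 and 39.6 FPKM in the vector replicates (0.51, SE 0.13, limma adjusted p = 0.0219). FOXK2 replicate 2 was the lowest FOXK2 library for all 3 of these genes. Calls for PSMD14 and PSMD1 were lost without FOXK2 replicate 1 or 3 or any 1 vector replicate (adjusted p = 0.0504 to 0.0849 and 0.0535 to 0.0801). With the correction PSMD14 stood at 0.37 (adjusted p = 0.0269) and PSMD1 at 0.17 (adjusted p = 0.176).

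PSMD4, a receptor for ubiquitin chains, was at 109, 128 and 119 FPKM in the FOXK2 replicates, against 196, 188 and 209 FPKM in the vector replicates. This was the clearest difference outside the immunoproteasome by its p, with a log2 change of -0.74 (SE 0.11, limma adjusted p = 0.00330), and -0.43 with the correction (adjusted p = 0.00406). PSMD3, a lid scaffold, was at 81.1, 112 and 85.3 FPKM in the FOXK2 replicates, against 117, 125 and 133 FPKM in the vector replicates (-0.44, SE 0.15, limma adjusted p = 0.0475). The PSMD3 call was lost with the correction (-0.05, adjusted p = 0.703) and without FOXK2 replicate 1 or 3 or any 1 vector replicate (adjusted p = 0.0761 to 0.151). The 2 genes thus differ in how firmly their calls stand: PSMD4 kept its call in every alternative run, and PSMD3 in 6 of 17.

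Neither the other activators nor the inhibitor passed the test. PSME3, a nuclear cap related to PA28, averaged 64.3 ± 5.69 FPKM in FOXK2 cells and 86.2 ± 11.7 FPKM in vector cells (SD, n = 3 each; log2 change -0.41, limma adjusted p = 0.0523). PSME4, the PA200 activator, averaged 12.6 ± 2.93 FPKM in FOXK2 cells and 8.01 ± 1.32 FPKM in vector cells (0.58, limma adjusted p = 0.0522). PSMF1, an inhibitor of the 20S barrel, averaged 31.2 ± 4.30 FPKM in FOXK2 cells and 39.2 ± 1.35 FPKM in vector cells (-0.33, limma adjusted p = 0.0937). The groups of each of these 3 genes did not overlap, as was so for 52.0% of all tested genes, and for 28 of the 47 PSM genes.

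Of 7 assembly chaperones, which dock subunits in order and do not stay in the finished particle, 1 was called, against 36.3% of all tested genes. PSMG4, which helps to build the alpha ring, was at 69.1, 90.5 and 71.7 FPKM in the FOXK2 replicates, against 111, 108 and 151 FPKM in the vector replicates (log2 change -0.67, SE 0.17, limma adjusted p = 0.0217). Vector replicate 3 was the highest library, and the call was lost without it, or without FOXK2 replicate 1 or 3 (adjusted p = 0.0636 to 0.0759). With the correction for GC content and length PSMG4 stood at -0.12 (adjusted p = 0.418). PSMG1, its fellow chaperone, averaged 31.9 ± 2.49 FPKM in FOXK2 cells and 24.3 ± 2.83 FPKM in vector cells (SD, n = 3 each), at 0.38 (adjusted p = 0.0596), and was called higher with the correction (0.34, adjusted p = 0.0466). PSMC3IP, a PSM gene by symbol only, was at 38.1, 27.7 and 38.1 FPKM in the FOXK2 replicates, against 22.9, 25.1 and 21.6 FPKM in the vector replicates (0.55, SE 0.16, limma adjusted p = 0.0316). With the correction PSMC3IP stood at 0.84, and its call was lost without FOXK2 replicate 1 or 3 or any 1 vector replicate (adjusted p = 0.0614 to 0.113).

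Individual transcripts were tested as deposited. The 47 genes had 158 listed transcripts, of which 127 were tested, 12 were lower and 1 was higher in FOXK2 cells, against 4.36% lower and 3.03% higher among all tested transcripts. The 13 called transcripts belonged to 11 genes, and no gene had transcripts called in both directions. Of the immunoproteasome genes, PSMB8, PSMB9, PSMB10 and PSME1 had their most abundant transcript called lower. For PSMB8 this was ENST00000374882, with 38.2 ± 3.67 FPKM in FOXK2 cells and 125 ± 5.14 FPKM in vector cells (SD, n = 3 each; log2 change -1.69, limma adjusted p = 0.00299). The second PSMB8 transcript, ENST00000374881, which starts 656 bases upstream with another first exon, was lower too, with 1.88 ± 0.372 FPKM in FOXK2 cells and 5.12 ± 0.540 FPKM in vector cells (-1.09, limma adjusted p = 0.0279). PSME2's most abundant transcript, ENST00000216802, averaged 36.4 FPKM in FOXK2 cells and 54.2 FPKM in vector cells and did not pass the test (-0.55, limma adjusted p = 0.0723).

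Some genes had transcripts that differed from the gene sum in call or in spread between libraries. PSMD13, a lid subunit whose gene sum did not pass the test (-0.19, limma adjusted p = 0.270), had a lower ENST00000532097, at 40.3, 51.5 and 45.2 FPKM in the FOXK2 replicates, against 70.1, 72.7 and 72.7 FPKM in the vector replicates (-0.65, limma adjusted p = 0.0364). That transcript made up 47.4% of PSMD13 in FOXK2 cells and 65.4% in vector cells. PSMC3IP carried the 1 transcript called higher, ENST00000590760, with 14.1 ± 2.41 FPKM in FOXK2 cells and 6.85 ± 1.26 FPKM in vector cells (SD, n = 3 each; 0.95, limma adjusted p = 0.0466). PSMB5 owed part of its spread to ENST00000493471, at 1.36, 1.56 and 1.58 FPKM in the FOXK2 replicates and 22.3, 5.84 and 3.39 FPKM in vector replicates 1, 2 and 3, which did not pass the test. When each gene was represented by its most abundant transcript, 9 of the calls described with values here were lost (adjusted p = 0.0528 to 0.414). Log2 changes then were 0.61 for PSMD1, -0.44 for PSMD3, 0.74 for UBA6, 0.91 for JAK2, -1.03 for STAT2 and 1.45 for RAD23B. They were nearer to 0 for PSMG4 (-0.44), PSMC3IP (0.24) and DPP3 (-0.55). The division of reads among transcripts is an estimate, and 12 of the 47 genes, PSME2 among them, have a named pseudogene that could share reads with them.

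The partners of the proteasome outside the PSM symbols, such as shuttle factors, deubiquitinases and chaperones, were called in 3 of 26 tested genes, or 11.5%, all 3 as higher, against 36.3% of all tested genes called, 17.6% as higher. With the correction for GC content and length 3 were called higher and 1 lower: SEM1, a small 19S subunit, was lower (-0.51, adjusted p = 0.0101), and AKIRIN2, a factor in nuclear import of proteasomes, was among the higher (0.43, adjusted p = 0.0307). RAD23B, which carries ubiquitinated proteins to the proteasome, averaged 55.7 ± 8.69 FPKM in FOXK2 cells and 32.9 ± 1.22 FPKM in vector cells (SD, n = 3 each; log2 change 0.73, limma adjusted p = 0.00793). UBQLN1, another shuttle, averaged 36.7 ± 7.14 FPKM in FOXK2 cells and 20.04 ± 1.49 FPKM in vector cells (0.82, limma adjusted p = 0.00993). With the correction RAD23B stood at 0.28 and UBQLN1 at 0.46. IPO9, an importin that carries proteasomes into the nucleus, was higher at 0.45 (adjusted p = 0.0306), lost without FOXK2 replicate 3 or any 1 vector replicate (adjusted p = 0.0688 to 0.107) and 0.13 with the correction (adjusted p = 0.528). NFE2L1, the transcription factor that induces proteasome genes when the proteasome is inhibited, did not pass the test, with 42.3 ± 7.80 FPKM in FOXK2 cells and 49.5 ± 3.99 FPKM in vector cells (-0.23, limma adjusted p = 0.259).

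Of 6 ubiquitin and E1 genes, 2 were lower and 1 was higher, against 18.7% and 17.6% of all tested genes. UBB, a polyubiquitin gene, averaged 485 FPKM in FOXK2 cells and 639 FPKM in vector cells (-0.40, limma adjusted p = 0.0231), and UBA1, the main ubiquitin-activating enzyme, 119 FPKM in FOXK2 cells and 165 FPKM in vector cells (-0.49, limma adjusted p = 0.0396). UBA6, the other such enzyme, averaged 7.18 FPKM in FOXK2 cells and 3.95 FPKM in vector cells (0.74, limma adjusted p = 0.0469). Calls for UBB and UBA1 were lost without FOXK2 replicate 1 or 3 or any 1 vector replicate, and that for UBA6 without FOXK2 replicate 1 or 3 or vector replicate 2 or 3 (adjusted p = 0.0505 to 0.137 over the 3 genes). None of the 3 was called with the correction, nor were UBB (-0.10) and UBA1 (-0.33) with quantile normalization.

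Among 10 tested cytosolic peptidases, which trim the products of the proteasome, 1 was higher and 1 lower. Over all tested genes 17.6% were called higher and 18.7% lower. TPP2, which takes over longer peptides, was at 20.3, 12.0 and 16.3 FPKM in the FOXK2 replicates, against 6.33, 7.505 and 4.94 FPKM in the vector replicates (log2 change 1.23, limma adjusted p = 0.00635). DPP3, which removes dipeptides, was at 21.8, 33.9 and 24.2 FPKM in the FOXK2 replicates, against 63.0, 55.9 and 58.4 FPKM in the vector replicates (-1.14, limma adjusted p = 0.00341). Neither gene's groups overlapped, and with the correction for GC content and length they stood at 0.75 and -0.78.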

How the data were processed

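Total RNA was sequenced in 6 libraries, 3 per group, after stranded random-primed library preparation, per the labels' protocols. Per the submitters' processing notes, cutadapt, HISAT2 2.1.0 and StringTie were used on hg19, and no source used here gives their settings or says whether strand was used. The deposited values were taken as FPKM because the notes name StringTie; the header gives no unit. With depth unknown, no counting intervals are given. In at least one group, each transcript of the table averaged 0.5 FPKM or more.

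Of 31009 transcripts, 30893 matched GENCODE 29, used for names, GC content and length only, and 116, with 0.211% of the signal, did not. Values were summed per symbol, and log2(FPKM + 1) was tested with limma 3.58.1 in R 4.3.3 (intensity trend, two-sided, Benjamini-Hochberg over all tested genes, mean of at least 1 FPKM). Fold changes on this scale understate changes of low genes. Transcripts were tested likewise. The GC and length correction removed natural splines with 4 degrees of freedom from each library's deviations. Pair ratios used exact permutation tests. Scripts were tested on simulated data.

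The design text calls the samples biological replicates without saying how cultures were separated, so p-values measure only the spread between these samples. The PSM genes, the lists and the tests were chosen with earlier results of these data known. Genes named are FOXK2, the immunoproteasome genes and their counterparts, each PSM gene called, and called members of the lists; others were named after their values were seen. Some genes of the lists are not reported here. Alternatives were other pseudocounts, filters and scalings, the correction, no intensity trend, array weights, a replicate block, the most abundant transcript and each library left out.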

Additional observations from a re-analysis of the deposited data

How the results depend on the processing

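The immunoproteasome kept 4 or 5 of its 5 calls in each of 17 alternatives. Of the 19 PSM genes called, 7 kept their call in all 17 (PSMB8, PSMB9, PSMB10, PSME1, PSMB1, PSMB4 and PSMD4), and 9 kept it whichever library was left out. Leaving out 1 library gave 9 to 26 PSM calls, 5 to 21 calls outside the immunoproteasome, 1944 to 4768 calls over all genes (3741 with all libraries) and 175 to 2162 over all transcripts (1572 with all libraries). With array weights 33 PSM genes, 28 of them outside the immunoproteasome, 7116 genes and 3990 transcripts were called. With the GC and length correction 12 PSM genes were called, 8 of them outside the immunoproteasome. Many genes outside the immunoproteasome changed sign with it, in both directions. Among them were PSMB6 (to 0.17), PSMA7 (to 0.022), PSMG3 (-0.35 to 0.27), PSMC4 (-0.20 to 0.17), PSMD5 (0.32 to -0.11) and PSMA5 (0.19 to -0.22). Taking the most abundant transcript for the gene gave 2143 genes. The difference in the share of PSMB8, PSMB9 and PSMB10 was -12.2 percentage points, -13.2 with quantile normalization and -13.4 with the most abundant transcript. The causes were not tested. Each run with a library left out has fewer samples. The run without FOXK2 replicate 2 gave more calls than all libraries together, with 26 PSM genes, 4768 genes and 2162 transcripts. The groups share replicate numbers, and the sample titles state no pairing. Same-numbered libraries deviated from their group means with correlations of 0.126, -0.168 and -0.0562, against -0.285 to 0.302 for differently numbered libraries. With 3 libraries per group, whose deviations depend on each other, such values cannot show whether cultures were prepared in pairs. With the replicate block 9 genes outside the immunoproteasome were called, 14 PSM genes in all, 2982 genes and 22 transcripts. No scaling moved the median of all genes by more than 0.02 (log2). FPKM without read counts leaves the precision of low values unknown.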

Other observations

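The genes whose log2 levels followed PSMB8 most closely over the 6 libraries, by Pearson correlation over all tested genes, were C15orf48, KCNK3, CXCL1, MFGE8 and PLPP3. C15orf48 averaged 0.243 FPKM in FOXK2 cells and 38.1 FPKM in vector cells, and CXCL1, a neutrophil chemokine, 6.56 FPKM in FOXK2 cells and 313 FPKM in vector cells. For PSMB9 they were UNC93B1, CIRBP, HTRA1, ABTB1 and LHPP, with UNC93B1, which delivers Toll-like receptors to endosomes, at 4.16 FPKM in FOXK2 cells and 22.5 FPKM in vector cells. For PSME2 they were P3H4, PLK3, FUNDC2, KHNYN and SKIV2L. The libraries form 2 groups, so this likeness rests mainly on the difference between them, and no coefficient is given.

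PSMB9 had a second listed transcript, ENST00000395330, at 4.03 FPKM in vector replicate 3 and at 0.0175 FPKM or listed at 0 in the other libraries, which is where the PSMB9 gene sum and its main transcript part in that library.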
